A study of Mus musculus with 20 samples.

Results

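The genes described here are 38 genes of sensory neuron identity, axons and synapses, out of 24062 genes in a table of read counts from mouse nerve tumours. They were chosen by name, with earlier results of these data known. The list holds 6 transcription factors, 3 receptors for neurotrophic factors, 3 neuropeptide genes and 6 sensory channels and receptors. It also holds 10 genes of the axon and cytoskeleton, 3 neuronal RNA-binding proteins and 7 genes of synaptic vesicles and junctions. The sodium, potassium and calcium channel families were left out of the list. Bulk RNA was sequenced from 12 neurofibromas, 4 paraspinal tumours (2 in each of 2 labelled subgroups) and 4 tumours labelled GEM-PNST, the submitters' name for a nerve sheath tumour stage of these mice. Neurofibromas came from C57BL/6J mice of genotype Nf1fl/fl; DhhCre. Paraspinal tumours and GEM-PNST came from C57BL/6J mice of genotype Ink4a/Arf+/-; Nf1fl/fl; DhhCre. All groups therefore share the floxed Nf1 alleles and DhhCre, a recombinase driven by a promoter of the Schwann cell lineage, so that the floxed gene is removed in that lineage and neurons keep it. No mouse received a drug, ages are not given in the labels, and no normal nerve or ganglion was analysed here.

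Sensory neurons have their cell bodies in dorsal root ganglia beside the spinal cord, send long axons through the peripheral nerves, and are wrapped by satellite glia at the cell body and by Schwann cells along the axon. The transcription factors Pou4f1, Isl1 and Prdm12 set up sensory identity during development, and classes of mature neurons are told apart by their neurotrophin receptors, neuropeptides and transduction channels. Axons carry proteins and some transcripts, but most messenger RNA of a neuron lies in its cell body. In mice of this kind neurofibromas grow around nerve roots and dorsal root ganglia.

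Levels are given in CPM, read counts scaled to a common library size with edgeR's TMM factors, and in every list of 4 GEM-PNST values the libraries run from 1 to 4. Total counts were 16282605 to 22218382 per library in GEM-PNST, 18474071 to 24314222 in paraspinal and 9900759 to 17594164 in neurofibroma libraries. All GEM-PNST and paraspinal libraries share 1 sequencing run and the neurofibroma libraries make up another 2, so in comparisons with neurofibroma the stage, genotype and run cannot be told apart. Sox10, the transcription factor that defines the Schwann cell lineage, had 0.605, 0.484, 436 and 5.63 CPM in the GEM-PNST libraries, against 411 and 428 CPM in the subgroup 2 and 303 and 447 CPM in the subgroup 1 paraspinal libraries. Of the GEM-PNST libraries only library 3 therefore carried this marker at a level within the paraspinal range. Among the other libraries that stand apart, GEM-PNST library 1 had the highest summed level of 10 blood cell markers (2327.6 CPM), neurofibroma library 4 held few neuronal transcripts, and paraspinal subgroup 1 library 1 and neurofibroma library 9 held transcripts of sympathetic neurons. The comparisons between stages share libraries with each other. The p-values measure the spread between these samples, since the labels do not say that each came from a separate mouse.

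GEM-PNST and paraspinal tumours share a genotype and a run, so neither differs in the comparison between them. Nearly the whole neuronal list was lower in GEM-PNST. By edgeR's quasi-likelihood test, with adjustment over all genes tested, 34 of 38 members (89.5%) fell, 2 rose (Runx1 and Runx3) and 2 did not pass (Gap43 and Avil). Over all genes tested 7.78% fell and 2.98% rose. Since the members were chosen with earlier results known, these shares describe the list and do not test it. For the same 34 members every GEM-PNST library lay below every paraspinal library, which holds for 16.4% of all genes tested. The median log2 fold change was -6.97 over the members and 0.06 over all genes. In bulk RNA, fewer cells of a type and less RNA per cell cannot be told apart.

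**Figure D1:**
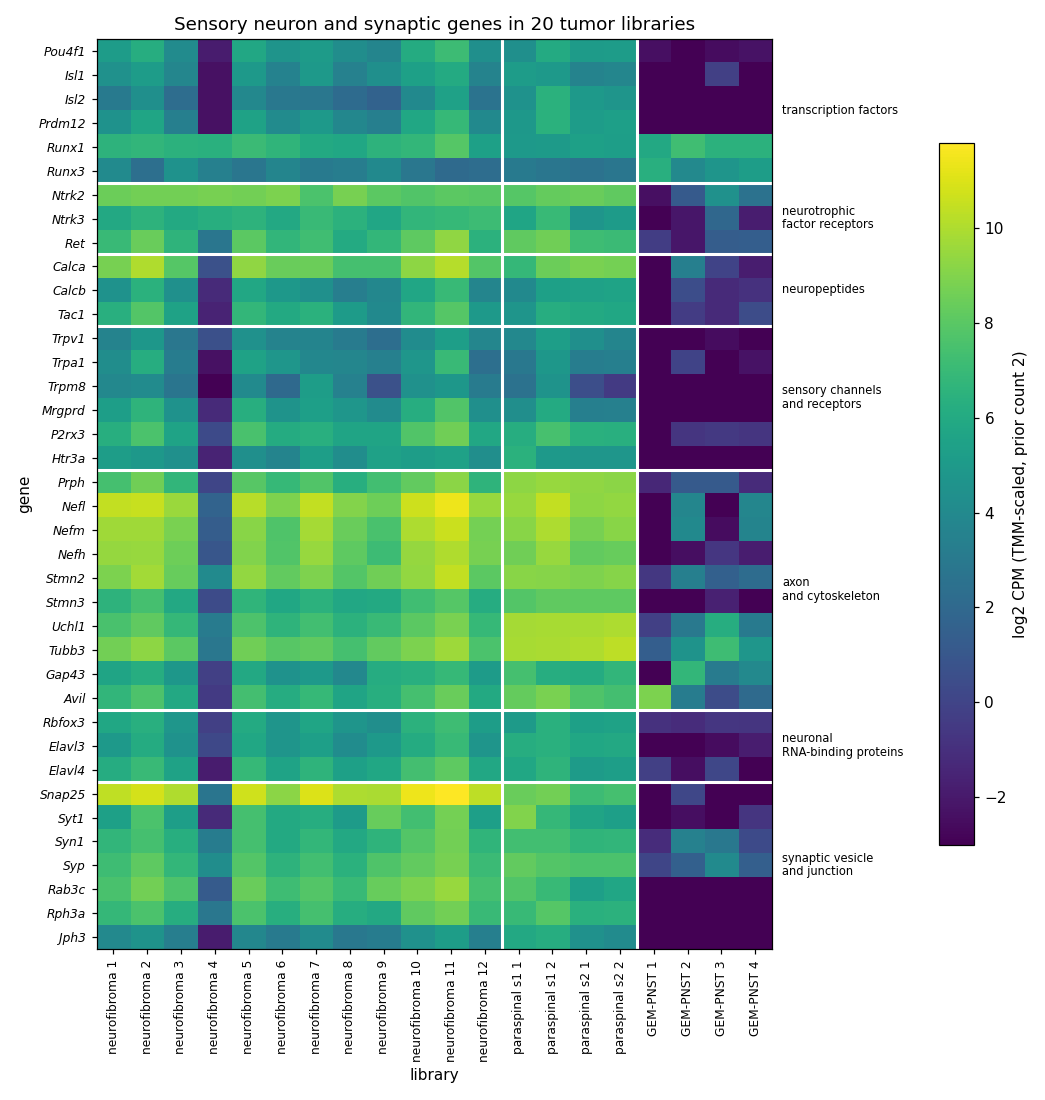
Level of each of the 38 members (rows, ordered by role) in each of the 20 libraries (columns, by stage; s1 and s2 are the paraspinal subgroups), as log2 CPM. The 4 GEM-PNST columns are dark, for low levels, in most rows, with exceptions in Runx1, Runx3, Gap43 and Avil. Neurofibroma library 4 is the lowest neurofibroma column in 34 of 38 rows.

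**Figure D2:**
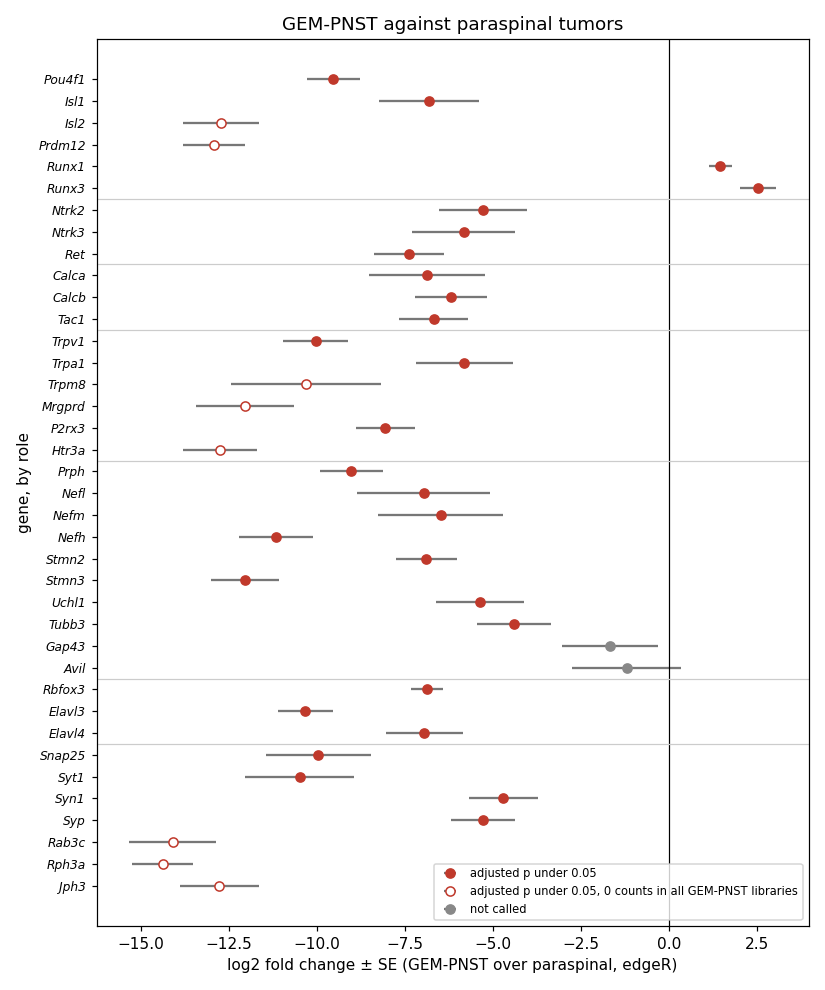
Log2 fold change of GEM-PNST over paraspinal libraries (x axis) for each member (y axis), with bars of 1 standard error; open circles mark members with 0 counts in all GEM-PNST libraries, whose fitted values are not bounds. Runx1 and Runx3 are the members to the right of 0, and the bar of Avil crosses 0.

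Of the 6 transcription factors, 4 fell and 2 rose. Pou4f1 (chr14:104461676-104467999 on GRCm38), the POU-domain factor that marks most sensory neurons, had 0.0672, 0, 0.0495 and 0.0804 CPM in the GEM-PNST libraries, against 35.1 and 36.3 CPM in the subgroup 2 and 20.2 and 65.4 CPM in the subgroup 1 paraspinal libraries. Those GEM-PNST levels are 3 reads in all, and the ratio of paraspinal to GEM-PNST was 857 (95% counting interval 293 to 4160; adjusted p = 0.000852 by edgeR). Prdm12 (chr2:31640037-31655795), required for the development of pain-sensing neurons, had 0 counts in all GEM-PNST libraries, against 36.1 and 40.2 CPM in the subgroup 2 and 29.8 and 88.1 CPM in the subgroup 1 paraspinal libraries. It was at least 1060-fold lower in GEM-PNST, taking a floor of 3 counts for the 4 libraries together (adjusted p = 0.00224). The LIM homeodomain gene Isl2 (chr9:55538672-55546180) also had 0 counts in all GEM-PNST libraries, against 32.4 and 25.7 CPM in the subgroup 2 and 23.1 and 87.6 CPM in the subgroup 1 paraspinal libraries, and was at least 910.4-fold lower (adjusted p = 0.00365), or at least 589.5-fold without subgroup 1 library 2, its highest. Its relative Isl1, which acts with Pou4f1 in sensory neurons, was read in GEM-PNST library 3 alone, at 0.742 CPM, against 12.1 to 35.7 CPM in paraspinal libraries (log2 fold change -6.82, SE 1.42, adjusted p = 0.0244). Counting error alone is covered by these floors and intervals.

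Runx1 and Runx3 went the other way. Runx1, which shapes the nociceptors without neuropeptides and is also a regulator of blood cell formation (chr16:92601466-92826149), had 60.9, 155, 89.3 and 90.6 CPM in the GEM-PNST libraries, against 42 and 39 CPM in the subgroup 2 and 30.1 and 33.1 CPM in the subgroup 1 paraspinal libraries. The lowest GEM-PNST library lay above the highest paraspinal library, and Runx1 rose (log2 fold change 1.46, SE 0.32, adjusted p = 0.0289 by edgeR). Runx3, a factor of proprioceptive neurons that also acts in T cells (chr4:135120652-135177990), had 81.9, 15.4, 25.7 and 36.7 CPM in the GEM-PNST libraries, against 5.84 and 6.71 CPM in the subgroup 2 and 8.38 and 6.9 CPM in the subgroup 1 paraspinal libraries. Again the groups did not overlap, library 1 was the highest, and Runx3 rose (log2 fold change 2.52, SE 0.52, adjusted p = 0.0232 by edgeR). GEM-PNST libraries lay wholly above paraspinal libraries for these 2 of 38 members and for 1853 of 16943 genes tested. Both calls were lost when GEM-PNST library 4 or any 1 of the paraspinal libraries was left out, and with either paraspinal subgroup alone (adjusted p from 0.0509 to 0.3155 over these). The summed level of the 10 blood cell markers was 2327.6, 327.4, 964 and 1543 CPM in the GEM-PNST libraries, against 137 to 462 CPM in paraspinal libraries. Of these markers 3 rose (Spi1, Cd4 and Cd8a), none fell, and their part in the Runx levels was not tested.

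The 3 receptor genes all fell, with a median log2 fold change of -5.84. Ntrk2 (chr13:58806569-59133970), which encodes the receptor TrkB and is also expressed by glia, had 0.0672, 2.15, 22 and 5.71 CPM in the GEM-PNST libraries, against 338 and 285 CPM in the subgroup 2 and 234 and 318 CPM in the subgroup 1 paraspinal libraries. The highest GEM-PNST library, library 3, was far below the lowest paraspinal library (log2 fold change -5.29, SE 1.25, adjusted p = 0.0364 by edgeR). Ret (chr6:118151745-118197718), the signalling receptor for GDNF family ligands, had 0.672, 0.108, 2.42 and 2.57 CPM in the GEM-PNST libraries, against 148 and 136 CPM in the subgroup 2 and 296 and 387 CPM in the subgroup 1 paraspinal libraries (log2 fold change -7.39, SE 0.99, adjusted p = 0.00463). Its paraspinal levels were higher in both subgroup 1 libraries than in both subgroup 2 libraries. Ntrk3, the receptor TrkC of proprioceptive and mechanosensory neurons, was highest among GEM-PNST in library 3 as well, at 3.71 CPM against 0 to 0.161 CPM in the other GEM-PNST libraries, and 25.8 to 123 CPM in paraspinal libraries (log2 fold change -5.84, SE 1.46, adjusted p = 0.0411).

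All 3 neuropeptide genes, markers of peptidergic pain-sensing neurons, fell, with a median log2 fold change of -6.69. Calca (chr7:114631478-114636357), which encodes calcitonin and, in neurons, the peptide CGRP, had 0, 10.4, 0.841 and 0.161 CPM in the GEM-PNST libraries, against 453 and 424 CPM in the subgroup 2 and 116 and 354 CPM in the subgroup 1 paraspinal libraries (log2 fold change -6.87, SE 1.65, adjusted p = 0.0375 by edgeR). GEM-PNST library 2 stood above the other GEM-PNST libraries, and its level was below the lowest paraspinal level. Tac1 (chr6:7554879-7565834), the precursor of substance P, had 0, 0.646, 0.297 and 1.21 CPM in the GEM-PNST libraries, against 62.7 and 57 CPM in the subgroup 2 and 26.5 and 73.9 CPM in the subgroup 1 paraspinal libraries (log2 fold change -6.69, SE 0.98, adjusted p = 0.00666). Calcb, the gene of the second form of CGRP, had at most 1.29 CPM in GEM-PNST and at least 16.1 CPM in paraspinal libraries (log2 fold change -6.20, SE 1.02, adjusted p = 0.0102). Subgroup 1 library 1 was the lowest paraspinal library for all 3 peptides.

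All 6 sensory channels and receptors fell, and 3 of them had no read in any GEM-PNST library. Mrgprd (chr7:145314835-145324086), a receptor of nociceptors without neuropeptides, had 0 counts in all GEM-PNST libraries, against 10.4 and 10.7 CPM in the subgroup 2 and 19.3 and 65.4 CPM in the subgroup 1 paraspinal libraries, at least 570.4-fold lower (adjusted p = 0.00932 by edgeR). Trpm8 (chr1:88277661-88389293), the channel that senses cold, had 0 counts against 1.31 and 0.586 CPM in the subgroup 2 and 5.89 and 24 CPM in the subgroup 1 paraspinal libraries, at least 169.6-fold lower (adjusted p = 0.0409). Without subgroup 1 library 2, the highest for both genes, these bounds were at least 297-fold for Mrgprd and at least 56.7-fold for Trpm8. Htr3a (chr9:48899213-48911099), a serotonin-gated channel subunit, had 0 counts against 26.7 and 26.6 CPM in the subgroup 2 and 88.6 and 30.7 CPM in the subgroup 1 paraspinal libraries, at least 956-fold lower (adjusted p = 0.00348). The paraspinal libraries thus differed widely for Trpm8, and Htr3a was highest in subgroup 1 library 1, without which its bound was at least 615-fold. P2rx3 (chr2:84998583-85037462), an ATP-gated channel of nociceptors, had 0, 0.484, 0.544 and 0.483 CPM in the GEM-PNST libraries, against 84.4 and 79.6 CPM in the subgroup 2 and 73.1 and 177 CPM in the subgroup 1 paraspinal libraries (log2 fold change -8.06, SE 0.85, adjusted p = 0.00189). Trpv1, the channel that senses heat and capsaicin, was represented by 1 read over all GEM-PNST libraries, against 13 to 39.6 CPM in paraspinal libraries. The ratio of paraspinal to GEM-PNST for Trpv1 was 1417 (95% counting interval 254 to 55993; adjusted p = 0.00134). Trpa1, which senses irritants, reached 0.861 CPM in GEM-PNST library 2 and 7.47 to 28.4 CPM in paraspinal libraries (log2 fold change -5.81, SE 1.38, adjusted p = 0.0369).

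In the axon and cytoskeleton group 8 of 10 members fell, with a median log2 fold change of -6.70 over the 10. Tubb3 (chr8:123411424-123422015), the neuronal beta-tubulin, had 2.55, 24.3, 144 and 26.9 CPM in the GEM-PNST libraries, against 1054 and 1274 CPM in the subgroup 2 and 917 and 961 CPM in the subgroup 1 paraspinal libraries. It kept the highest GEM-PNST level among the members that fell, in library 3, and fell (log2 fold change -4.41, SE 1.05, adjusted p = 0.0375 by edgeR). Uchl1, a deubiquitinase abundant in neurons, was likewise highest in library 3, at 74.6 CPM against 0.739 to 8.04 CPM in the other GEM-PNST libraries, and at 889 to 1023 CPM in paraspinal libraries (log2 fold change -5.38, SE 1.26, adjusted p = 0.0352). GEM-PNST library 3 is also the library with Sox10 within the paraspinal range. The part of the Schwann cell lineage in these levels was not tested.

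The 4 intermediate filament genes, whose proteins fill the axon, fell together. Nefl (chr14:68083863-68089095), the light neurofilament chain, had 0, 13.8, 0 and 13.5 CPM in the GEM-PNST libraries, against 623 and 687 CPM in the subgroup 2 and 718 and 1409.8 CPM in the subgroup 1 paraspinal libraries. GEM-PNST libraries 1 and 3 held no read, while libraries 2 and 4 were close to each other (log2 fold change -6.97, SE 1.89, adjusted p = 0.04992). Its neighbour Nefm (chr14:68082590-68124846), the medium chain, showed the same library pattern, with 0, 16, 0.0495 and 12.6 CPM in the GEM-PNST libraries, against 437 and 563 CPM in the subgroup 2 and 569.8 and 1013 CPM in the subgroup 1 paraspinal libraries (log2 fold change -6.49, SE 1.76, adjusted p = 0.04995). Both lie just inside the threshold of 0.05, and both calls were lost with no filter on low counts. Their annotated exons overlap in part, and whether reads were counted by strand is not given in the sources used here. Nefh, the heavy chain, had at most 0.495 CPM in GEM-PNST and at least 303 CPM in paraspinal libraries (log2 fold change -11.16, SE 1.05, adjusted p = 0.00134). Prph, the filament peripherin of small sensory and autonomic neurons, had 0.269 to 2.15 CPM in GEM-PNST and 598 to 725 CPM in paraspinal libraries (log2 fold change -9.02, SE 0.89, adjusted p = 0.00154). Stmn2 (chr3:8509360-8561606), a microtubule regulator of growing axons, had 0.538, 10.3, 2.77 and 4.5 CPM in the GEM-PNST libraries, against 488 and 556 CPM in the subgroup 2 and 573 and 546 CPM in the subgroup 1 paraspinal libraries (log2 fold change -6.90, SE 0.88, adjusted p = 0.00365). Its relative Stmn3 was read in GEM-PNST library 3 alone, at 0.198 CPM, against 226 to 295 CPM in paraspinal libraries (log2 fold change -12.05, SE 0.97, adjusted p = 0.00089).

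Gap43 and Avil, both of the axon group, did not pass, and in each 1 GEM-PNST library stood above the rest. Gap43 (chr16:42248442-42340651), a growth cone protein that Schwann cells can also express, had 0, 109, 8.91 and 15.4 CPM in the GEM-PNST libraries, against 69.6 and 108 CPM in the subgroup 2 and 173 and 73.5 CPM in the subgroup 1 paraspinal libraries. Library 2 lay within the paraspinal range and library 1 held no read (log2 fold change -1.67, SE 1.36, adjusted p = 0.406 by edgeR). Avil (chr10:127000709-127020994), the actin regulator advillin of sensory neurons, had 477, 8.94, 1.24 and 4.18 CPM in the GEM-PNST libraries, against 207 and 167 CPM in the subgroup 2 and 318 and 445 CPM in the subgroup 1 paraspinal libraries. Library 1 lay above every paraspinal library and the other GEM-PNST libraries lay below all of them (log2 fold change -1.21, SE 1.54, adjusted p = 0.6). Without GEM-PNST library 1 the log2 fold change of Avil was -5.89 and passed (adjusted p = 0.00685), and with limma-voom sample weights it was -5.70 (adjusted p = 0.00501). In library 1, 24 of the 38 members had 0 counts, against 13, 12 and 13 members in GEM-PNST libraries 2 to 4. Library 1 was also the highest for blood cell markers, and Avil exons overlap those of Tsfm, a mitochondrial translation factor. The part of either in the level of Avil was not tested.

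**Figure D3:**
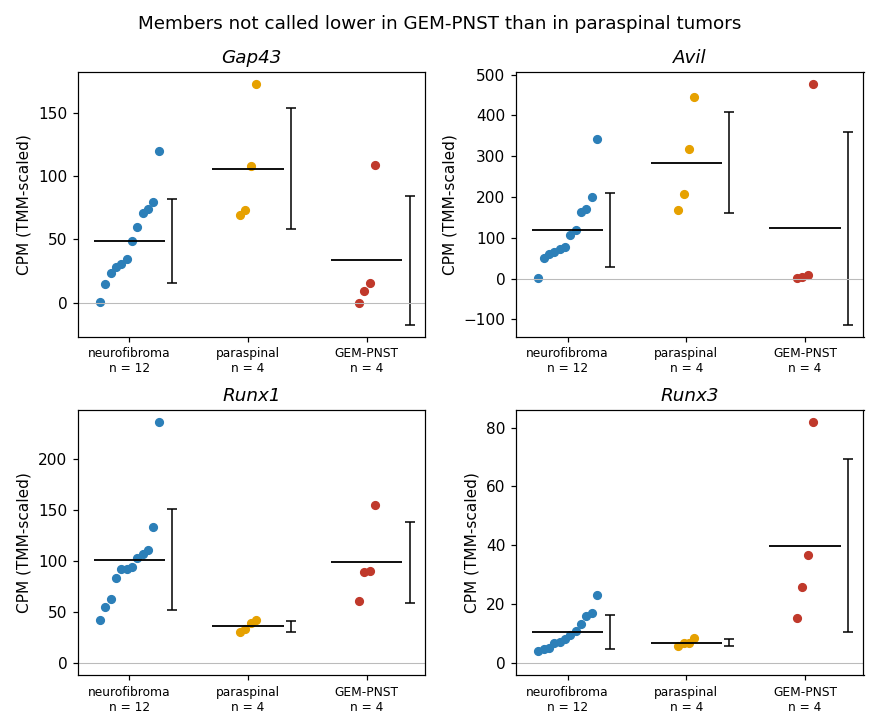
CPM of Gap43, Avil, Runx1 and Runx3 in each library (points, sorted by value within each stage), with the mean (line) and SD (bar) of each stage. Avil reaches 477 CPM in a single GEM-PNST library, Gap43 reaches 109 CPM in another, and for Runx1 and Runx3 every GEM-PNST point lies above every paraspinal point.

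The 3 neuronal RNA-binding proteins fell, with a median log2 fold change of -6.96. Rbfox3 (chr11:118489762-118911597), the splicing factor known as the antigen NeuN, had 0.403, 0.323, 0.495 and 0.483 CPM in the GEM-PNST libraries, against 42.3 and 46.2 CPM in the subgroup 2 and 33.2 and 82.3 CPM in the subgroup 1 paraspinal libraries. Its GEM-PNST levels were low and alike in all 4 libraries (log2 fold change -6.89, SE 0.45, adjusted p = 0.000554 by edgeR). Elavl4 (chr4:110203722-110351909), an RNA stabiliser of the Hu family, had 0.739, 0.0538, 0.99 and 0 CPM in the GEM-PNST libraries, against 34.7 and 38.6 CPM in the subgroup 2 and 56.6 and 100.02 CPM in the subgroup 1 paraspinal libraries (log2 fold change -6.96, SE 1.09, adjusted p = 0.00854). Its relative Elavl3 was represented by 3 reads in GEM-PNST, and the ratio of paraspinal to GEM-PNST was 1505 (95% counting interval 515 to 7302; adjusted p = 0.000852).

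All 7 synaptic genes fell. Their median log2 fold change was -10.50, or -9.96 with the members at 0 counts set to their bounds. Snap25 (chr2:136713453-136782428), a SNARE protein of vesicle fusion, had 0, 0.969, 0 and 0 CPM in the GEM-PNST libraries, against 142 and 175 CPM in the subgroup 2 and 334 and 396 CPM in the subgroup 1 paraspinal libraries. It was read in GEM-PNST library 2 alone (log2 fold change -9.96, SE 1.49, adjusted p = 0.00722 by edgeR). Syp (chrX:7638471-7653256), the vesicle membrane protein synaptophysin, had 0.941, 2.8, 16.8 and 2.65 CPM in the GEM-PNST libraries, against 194 and 196 CPM in the subgroup 2 and 297 and 228 CPM in the subgroup 1 paraspinal libraries (log2 fold change -5.29, SE 0.91, adjusted p = 0.0121). Syn1 (chrX:20860511-20921004), which tethers vesicles to the cytoskeleton, had 0.336, 11.3, 7.32 and 1.13 CPM in the GEM-PNST libraries, against 103 and 105 CPM in the subgroup 2 and 161 and 159.9 CPM in the subgroup 1 paraspinal libraries (log2 fold change -4.71, SE 0.98, adjusted p = 0.0246). These last 2 genes kept reads in every GEM-PNST library, and exons of both overlap other annotated genes. Syt1, the calcium sensor of vesicle release, had at most 0.483 CPM in GEM-PNST libraries, against 40.4 to 501 CPM in paraspinal libraries (log2 fold change -10.50, SE 1.55, adjusted p = 0.00698).

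The other 3 synaptic members had no read in any GEM-PNST library. Rab3c (chr13:110054187-110280996), a vesicle GTPase, had 0 counts against 40.8 and 53.1 CPM in the subgroup 2 and 222 and 123 CPM in the subgroup 1 paraspinal libraries, at least 2427-fold lower (adjusted p = 0.00419 by edgeR), or at least 1585-fold without subgroup 1 library 1. Rph3a (chr5:120940499-121010092), the effector rabphilin that binds Rab3 proteins, had 0 counts against 82.7 and 91.4 CPM in the subgroup 2 and 126 and 235 CPM in the subgroup 1 paraspinal libraries, at least 2921-fold lower (adjusted p = 0.00154). Jph3 (chr8:121729623-121794276), a junctophilin that joins the plasma membrane to the endoplasmic reticulum in neurons, had 0 counts against 22.5 and 17.5 CPM in the subgroup 2 and 61.5 and 72.8 CPM in the subgroup 1 paraspinal libraries, at least 948-fold lower (adjusted p = 0.00419). In all 3 genes the subgroup 2 libraries were below the subgroup 1 libraries, as they were for 34.1% of all genes tested, with 34.0% wholly above. Altogether 8 of the 38 members had 0 counts in all GEM-PNST libraries, as did 546 of all genes tested (3.22%).

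The sequences just before RefSeq starts of the genes at 0 counts are printed as a description. For Prdm12, Mrgprd and Rph3a the stretch lies directly outside the gene coordinates given above. For Isl2, Trpm8, Rab3c and Jph3 it lies inside those coordinates, before a RefSeq start within the gene, and is not upstream of the whole gene. RefSeq windows on GRCm38.p6 were matched for 7 of the 8, and Htr3a is named only. Each line gives the 120 bases before a RefSeq start, 5′ to 3′ on the gene's strand. Capitals mark matches to the Sp1 box GGGCGG (on the other strand CCGCCC), the cyclic AMP element TGACGTCA or the TATA box TATAAA.
Isl2, chr9:55541029-55541148, plus strand: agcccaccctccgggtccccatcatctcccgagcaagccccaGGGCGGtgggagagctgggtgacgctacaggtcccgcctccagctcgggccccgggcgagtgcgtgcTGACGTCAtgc
Prdm12, chr2:31639917-31640036, plus strand: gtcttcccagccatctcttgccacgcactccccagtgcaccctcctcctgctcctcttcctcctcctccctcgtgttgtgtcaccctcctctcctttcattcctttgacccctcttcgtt
Trpm8, chr1:88306615-88306734, plus strand: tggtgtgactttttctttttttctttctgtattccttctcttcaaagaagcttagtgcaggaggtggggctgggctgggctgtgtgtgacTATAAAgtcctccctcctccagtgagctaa
Mrgprd, chr7:145314715-145314834, plus strand: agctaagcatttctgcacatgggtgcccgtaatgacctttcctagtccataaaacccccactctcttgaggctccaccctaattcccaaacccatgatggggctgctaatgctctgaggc
Rab3c, chr13:110280207-110280326, minus strand: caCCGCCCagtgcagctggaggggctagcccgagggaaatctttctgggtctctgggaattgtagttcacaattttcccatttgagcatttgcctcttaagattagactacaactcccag
Rph3a, chr5:121010093-121010212, minus strand: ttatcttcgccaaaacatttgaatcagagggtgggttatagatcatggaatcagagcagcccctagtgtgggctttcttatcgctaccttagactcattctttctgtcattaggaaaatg
Jph3, chr8:121730439-121730558, plus strand: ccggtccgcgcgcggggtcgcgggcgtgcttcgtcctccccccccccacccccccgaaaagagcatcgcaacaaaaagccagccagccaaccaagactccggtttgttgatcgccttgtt
Within these stretches Isl2 held a Sp1 box and a cyclic AMP element close to the start, Trpm8 a TATA box, and Rab3c a Sp1 box on the other strand. The remaining 4 stretches held no match to these letters. In windows from 250 bases before to 50 after the start, 26 members had a RefSeq window and 14 of them held GGGCGG on either strand, against 38.2% of all 27025 genes. TATAAA was in windows of 3 members (Elavl3, Prph and Trpm8) and of 15.7% of all genes, and TGACGTCA in windows of 2 members (Isl2 and Syn1) and of 2.03% of all genes. The arms of RE1, the element bound by the repressor REST, were searched as CAGCACC (left) and GGACAG (right), on both strands. The left arm was in windows of 3 members (Rph3a, Syn1 and Tubb3) and of 8.14% of all genes, and the right arm in windows of 4 members (Avil, Rph3a, Syt1 and Tubb3) and of 24.7% of all genes. A match to these letters is a description of the window and not a bound site.

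Every library left out in turn kept the direction of all 36 calls between GEM-PNST and paraspinal tumours, and 23 of them kept their call in all 8 of these fits. The 13 that lost it in at least 1 fit were Isl1, Ntrk2, Ntrk3, Calca, Trpa1, Trpm8, Nefl, Nefm, Uchl1, Tubb3, Syn1, Runx1 and Runx3. The number of calls was 23 without GEM-PNST library 4 and without either subgroup 1 library, 25 without either subgroup 2 library, and 11 with subgroup 2 as the only paraspinal group, where 0.534% of all genes were called.

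Genes outside the list moved in part with it. Of other sensory neuron genes 14 of 27 fell and none rose, of other pan-neuronal genes 15 of 26 fell and none rose, and of other synaptic genes 21 of 28 fell and none rose. Their median log2 fold changes were -3.67, -4.54 and -5.54. Map1b, a microtubule-associated protein and the pan-neuronal gene with the highest mean level, had 3.76, 47.9, 38.5 and 96.4 CPM in the GEM-PNST libraries, against 365 and 387 CPM in the subgroup 2 and 1671 and 2015 CPM in the subgroup 1 paraspinal libraries (log2 fold change -4.57, SE 1.05, adjusted p = 0.0331 by edgeR). Thy1, a surface protein of neurons and also of T cells and fibroblasts, did not pass, with 74.9, 5913, 842 and 338 CPM in the GEM-PNST libraries, against 550.4 and 446 CPM in the subgroup 2 and 323 and 364 CPM in the subgroup 1 paraspinal libraries. Library 2 was the highest for Thy1 by far. Kif1a, an axonal motor, fell (log2 fold change -6.12, SE 1.31, adjusted p = 0.0263). Among sensory genes Piezo2, the channel of touch, fell (log2 fold change -2.57, SE 0.67, adjusted p = 0.0459), while the receptor genes Gfra2 and Osmr had log2 fold changes of -0.90 and -0.46 and did not pass. Vamp2, a part of the vesicle fusion machinery, fell (log2 fold change -1.50, SE 0.37, adjusted p = 0.0392), and the vesicle-scission gene Dnm1 did not pass (log2 fold change -1.38, adjusted p = 0.378).

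Some markers of the glia around sensory neurons fell as well. Of 8 satellite glia markers 3 fell and none rose, and their summed level was 310 to 606 CPM in GEM-PNST and 1438 to 1998 CPM in paraspinal libraries. Fabp7, a lipid-binding protein of these glia, had 1.21, 0, 4.4 and 0.724 CPM in the GEM-PNST libraries, against 108 and 169 CPM in the subgroup 2 and 141 and 135 CPM in the subgroup 1 paraspinal libraries (log2 fold change -6.42, SE 1.16, adjusted p = 0.0145 by edgeR). Of 11 Schwann cell markers 5 fell and none rose, and the summed level was 72.9 to 1351 CPM in GEM-PNST and 9105 to 19494 CPM in paraspinal libraries. No marker of 7 for fibroblasts passed, and their summed level was 141 to 13713 CPM in GEM-PNST and 4140 to 11549 CPM in paraspinal libraries. The part of any of these cell types in the neuronal result was not tested.

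Paraspinal tumours and neurofibromas differ in genotype and run as well as in stage. Most members had no called difference between them: 6 of 38 rose (15.8%), 2 fell (5.26%) and 30 did not pass. Over all genes tested 29.6% rose and 29.1% fell in paraspinal tumours, so the members' shares of calls lay below the background. The median log2 fold change was -0.04 over the members and -0.03 over all genes. A miss of the threshold does not show that levels were alike, since standard errors of log2 fold changes reached 0.98 among the members.

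**Figure D4:**
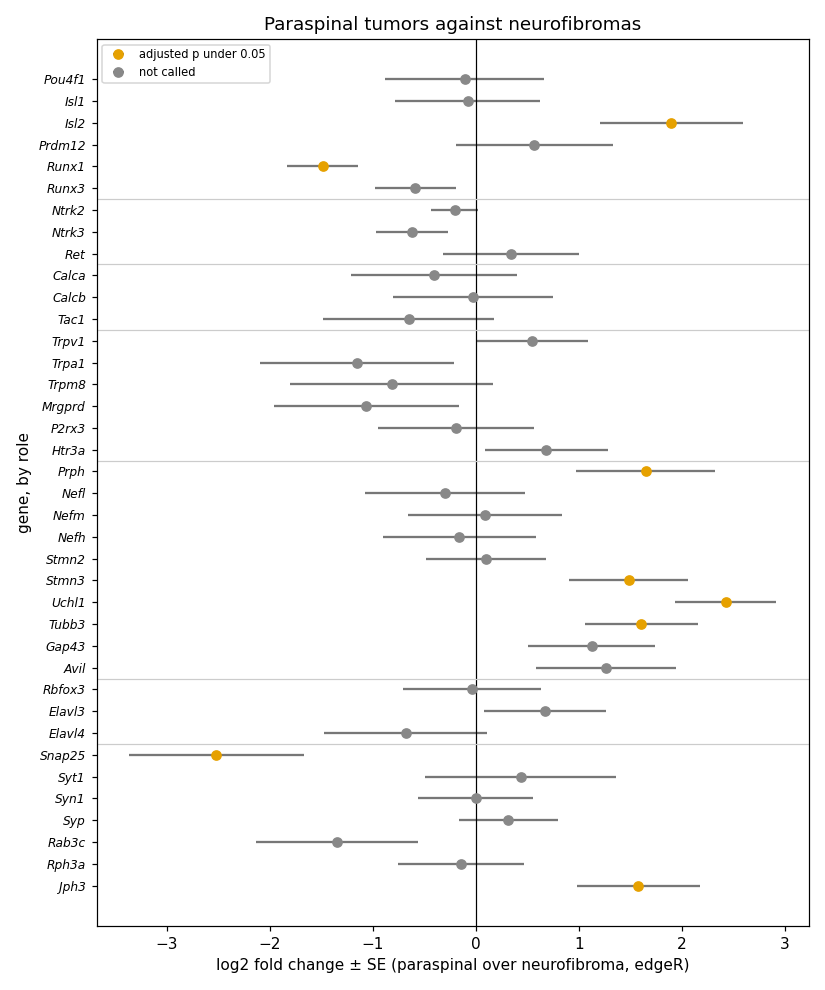
Log2 fold change of paraspinal over neurofibroma libraries (x axis) for each member (y axis), with bars of 1 standard error. Points lie on both sides of 0, with Uchl1 farthest to the right and Snap25 farthest to the left.

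Of the 6 members that rose, Uchl1, Tubb3, Prph and Stmn3 are among the 10 axon members, and the others were Isl2 and Jph3. Uchl1 had 946, 1023, 889 and 927 CPM in the paraspinal libraries, against 8.83, 146 and 449 CPM as the lowest, median and highest of 12 neurofibromas (log2 fold change 2.42, SE 0.49, adjusted p = 0.000405 by edgeR). Tubb3 averaged 1051 ± 159 CPM in paraspinal tumours (SD, n = 4) and 345 ± 207 CPM in neurofibromas (SD, n = 12), with a log2 fold change of 1.61, SE 0.55, adjusted p = 0.0178. For Uchl1 and Tubb3, and for Prph, every paraspinal library lay above every neurofibroma. For Prph this was by 598 CPM in subgroup 2 library 2 against 596 CPM in neurofibroma library 11. Groups lay apart in this direction for 3 of 38 members and for 3077 of 17256 genes tested. Prph averaged 647 ± 56.1 CPM in paraspinal tumours and 206 ± 161 CPM in neurofibromas (SD, n = 4 and 12; log2 fold change 1.65, SE 0.67, adjusted p = 0.0447). Stmn3 averaged 269.7 ± 29.8 CPM in paraspinal tumours and 96.5 ± 63.8 CPM in neurofibromas (SD, n = 4 and 12; log2 fold change 1.48, SE 0.58, adjusted p = 0.0367), and the groups overlapped. Isl2 averaged 42.2 ± 30.5 CPM in paraspinal tumours and 11.3 ± 11.7 CPM in neurofibromas, and Jph3 43.6 ± 27.7 CPM in paraspinal tumours and 14.6 ± 9.71 CPM in neurofibromas (SD, n = 4 and 12). The log2 fold changes were 1.90, SE 0.70, adjusted p = 0.0266 for Isl2 and 1.58, SE 0.60, adjusted p = 0.0318 for Jph3.

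Snap25 and Runx1 fell. Snap25 had 142 to 396 CPM in paraspinal libraries, against 6.5, 1299 and 3555 CPM as the lowest, median and highest of the neurofibromas (log2 fold change -2.52, SE 0.85, adjusted p = 0.017 by edgeR). The overlap between the groups came from neurofibroma library 4, since the next lowest neurofibroma had 603 CPM. Runx1 had 30.1 to 42 CPM in paraspinal libraries, against 42.3, 93.2 and 237 CPM as the lowest, median and highest of the neurofibromas (log2 fold change -1.49, SE 0.35, adjusted p = 0.00136). These 2 groups did not overlap. Paraspinal libraries lay wholly below neurofibromas for this 1 of 38 members and for 3046 of 17256 genes tested. The calls of Runx1 and Uchl1 held in all 19 alternatives tried, and the other 6 were each lost in at least 1 fit with a library left out. The number of calls was 5 without subgroup 1 library 1, without subgroup 1 library 2 or without subgroup 2 library 1, 4 without subgroup 2 library 2, 4 against neurofibroma libraries 1 to 6 alone and 7 against libraries 7 to 12 alone.

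Set against neurofibromas, GEM-PNST again had low neuronal transcripts: 34 of 38 members fell (89.5%), Runx3 rose, and Runx1, Gap43 and Avil did not pass. Over all genes tested 37.9% fell and 34.9% rose. For 20 members (52.6%) every GEM-PNST library lay below every neurofibroma, against 24.6% of all genes tested. Without neurofibroma library 4 this held for 34 members, against 27.5% of all genes. The members that still overlapped were Gap43, Avil, Runx1 and Runx3. The median log2 fold change was -7.31 over the members and -0.15 over all genes. Leaving out each GEM-PNST library and neurofibroma libraries 4, 8 and 9 in turn took away none of the 35 calls. With limma-voom and sample weights 14 members and 60.4% of all genes were called, against 72.8% of all genes with edgeR. The members' median log2 fold change was then -7.79, so fewer members passed although their differences were no smaller.

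The neurofibroma levels behind this comparison are given as the lowest, median and highest of 12 libraries, in order, and the GEM-PNST levels are those above. Pou4f1 had 0.146, 29.8 and 143 CPM in neurofibromas, Prdm12 had 0.073, 20.5 and 118 CPM and Isl2 had 0.073, 7.28 and 43.7 CPM. Among receptors, Ntrk2 had 193, 375 and 461 CPM and Ret had 6.72, 121 and 635 CPM. The lowest value was far below the median for every one of these genes but Ntrk2. Calca had 1.46, 343 and 1121 CPM and Tac1 had 0.219, 71.8 and 233 CPM in neurofibromas. P2rx3 had 1.1, 73.5 and 383 CPM, Mrgprd 0.292, 32.7 and 223 CPM, Trpm8 0, 13 and 36.9 CPM and Htr3a 0.219, 25 and 43.5 CPM. For all of these peptide and channel genes the lowest library was far below the median. In the axon group Tubb3 had 7.15, 293 and 779.6 CPM, Nefl had 3.07, 959.8 and 2793 CPM, Nefm had 2.48, 515 and 1536 CPM and Stmn2 had 16.5, 429.6 and 1374 CPM. Elavl4 had 0.146, 64.3 and 277 CPM and Rbfox3 had 0.73, 44 and 149 CPM. Among synaptic genes Syp had 19.2, 151 and 436 CPM, Syn1 had 9.05, 105 and 395 CPM, Rab3c had 2.19, 216 and 740.1 CPM, Rph3a had 7.23, 122 and 393 CPM and Jph3 had 0.146, 12.3 and 37.2 CPM. The fall in GEM-PNST was smallest for Tubb3 and Uchl1 among called members (log2 fold changes -2.80 and -2.95, adjusted p of 0.0136 and 0.0123 by edgeR). Of the genes with reads in GEM-PNST, Snap25 fell the most (log2 fold change -12.46, SE 1.73, adjusted p = 7.06e-06). For the members with no read in GEM-PNST, the bounds against neurofibroma ran from at least 239-fold lower for Isl2 to at least 5976-fold lower for Rab3c.

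Runx3 was the single member that rose against neurofibromas, averaging 39.9 ± 29.3 CPM in GEM-PNST (SD, n = 4) and 10.5 ± 5.77 CPM in neurofibromas (SD, n = 12). The groups overlapped (log2 fold change 1.93, SE 0.42, adjusted p = 0.000604 by edgeR). Runx1 averaged 99 ± 39.9 CPM in GEM-PNST and 101 ± 49.6 CPM in neurofibromas (SD, n = 4 and 12), with a log2 fold change of -0.03, SE 0.35, adjusted p = 0.939. Gap43 averaged 33.3 ± 50.9 CPM in GEM-PNST and 48.8 ± 33.5 CPM in neurofibromas, and Avil 123 ± 236 CPM in GEM-PNST and 119 ± 90.6 CPM in neurofibromas (SD, n = 4 and 12). Their log2 fold changes were -0.55 and 0.05, with adjusted p of 0.641 and 0.971.

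The labels call the paraspinal subgroups sub-clusters, which may mean that they were drawn from these same data, and no test was made between them. With 2 libraries each, subgroup 2 lay wholly below subgroup 1 for 20 of 38 members (52.6%), wholly above it for 5 (13.2%), and overlapped it for 13. Over all genes 34.1% lay wholly below and 34.0% wholly above. The widest gap was in Trpm8, with 1.31 and 0.586 CPM in subgroup 2 and 5.89 and 24 CPM in subgroup 1, a ratio of means of 0.0636. Syt1 had 49 and 40.4 CPM in subgroup 2 and 501 and 115 CPM in subgroup 1. Subgroup 1 library 1 set that gap for the most part. Ratios of subgroup 2 to subgroup 1 means were 0.145 for Syt1, 0.25 for Mrgprd, 0.272 for Rab3c and 0.298 for Jph3. The 5 members higher in subgroup 2 were Calca, Calcb, Uchl1, Tubb3 and Runx1, with ratios of means between 1.085 and 1.867. Subgroup 1 library 2 was the highest of the 4 paraspinal libraries for 23 of 38 members and the lowest for none.

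Among neurofibromas, library 4 was the lowest of 12 for 34 of 38 members and library 11 was the highest for 33. The exceptions in library 4 were Ntrk2, Ntrk3, Runx1 and Runx3, which summed to 611 CPM there, while the other 34 members summed to 102 CPM. In the remaining 11 libraries those 34 members summed to 3743 to 19154 CPM. Elavl4 had 0.146 CPM in library 4, a factor of 482 below the median of the remaining libraries, and Syp had 19.2 CPM, a factor of 8.16 below. The Schwann cell markers summed to 7392 CPM in library 4, within the range of the other neurofibromas, and the blood cell markers summed to 886 CPM, the highest of the 12. The 8 satellite glia markers summed to 1124 CPM there, within the 825 to 1480 CPM of the other neurofibromas. Of these, Fabp7 and Bcan were lowest in library 4, at 10.9 and 0.365 CPM, while Kcnj10 was highest there, at 381 CPM. The part of these cell types in the low neuronal levels of library 4 was not tested. Without library 4, the ratio of the highest to the lowest neurofibroma ran from 2.385 for Ntrk2 to 25.3 for Trpa1.

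Markers of sympathetic neurons, whose ganglia also lie beside the spine, were concentrated in paraspinal subgroup 1 library 1 and neurofibroma library 9. The summed level of 10 such markers was 3672 CPM in the paraspinal library, against 33.97 to 50.1 CPM in the other paraspinal libraries. It was 2731 CPM in neurofibroma library 9 and 28.1 to 143 CPM in the other neurofibromas. Dbh, the enzyme that makes noradrenaline, had 808 CPM in the paraspinal and 609 CPM in the neurofibroma library, and the transporter Slc6a2 had 1469 and 1351 CPM there. Among the members, Htr3a was highest of the 4 paraspinal libraries and of the 12 neurofibromas in them, and Syt1 was highest and second highest. Calca, Pou4f1 and Prdm12 were lowest of the 4 paraspinal libraries in subgroup 1 library 1 and next to lowest of the 12 in neurofibroma library 9. Isl1 differed from them, as the highest of the 4 in that paraspinal library and at rank 7 of 12 in neurofibroma library 9. Of all 38 members, subgroup 1 library 1 was the highest paraspinal library for 9 and the lowest for 14. Neurofibroma library 9 was the highest of the 12 for 1 member and the lowest for 1. Without both libraries, 5 members were called between paraspinal tumours and neurofibromas, in a fit chosen after the data were seen. In GEM-PNST the list was near 0 but for Npy, a peptide of sympathetic neurons, at 375 CPM in library 2. Markers of motor neurons summed to at most 5.14 CPM in any library.

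**Figure D5:**
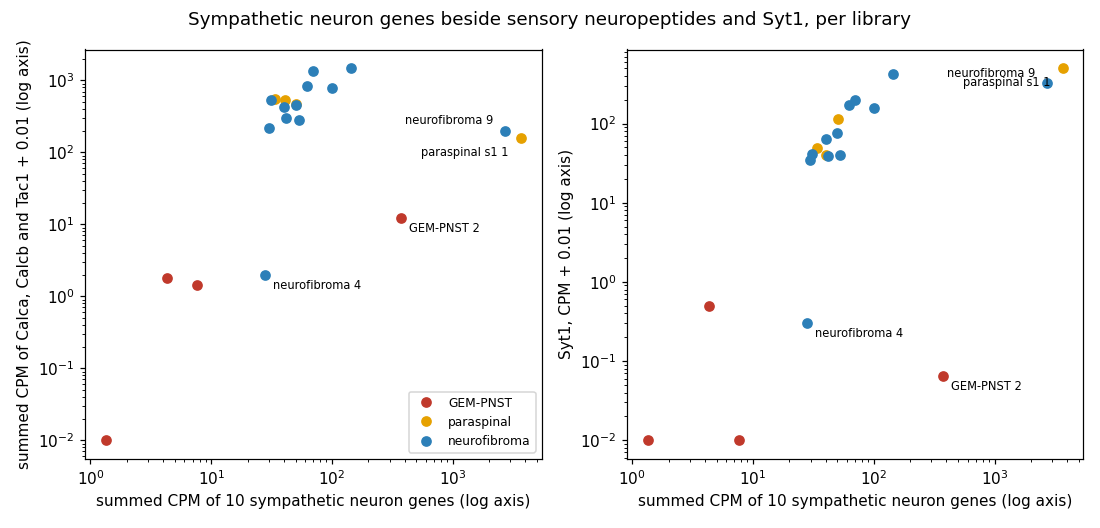
Summed CPM of 10 sympathetic neuron markers (x axis) against the summed CPM of Calca, Calcb and Tac1 and against the CPM of Syt1 (y axes), 1 point per library. All axes are log axes, and 0.01 was added to the y values only. The 2 libraries far to the right, paraspinal subgroup 1 library 1 and neurofibroma library 9, have peptide sums within or below those of their stages and high Syt1.

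Per kilobase of annotated exon, the levels of the members can be set against each other. Uchl1 and Tubb3 ranked highest in paraspinal tumours, at means of 580 and 563 CPM per kb, followed by Prph at 323.5 and Nefl at 254 CPM per kb. In neurofibromas Nefl and Calca had the highest medians, at 284 and 203.5 CPM per kb, ahead of Snap25 at 191 and Tubb3 at 157 CPM per kb. The lengths are of all annotated exons of a gene, so a gene with many isoforms reads low on this scale.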

How the data were processed

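The authors deposited 1 table of raw read counts by gene for 20 bulk RNA libraries. Per the labels' protocols, the RNeasy Plus Micro Kit served for extraction and Nextera XT for the libraries. The submitters' processing notes name mm10 and the tools TopHat, HISAT2 and featureCounts, while versions, roles, annotation and strand setting are not given in the sources used here. All 20 columns held whole counts of 0 or more, and none belonged to another sample.

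Counts were analysed with edgeR 4.0.16 in R 4.3.3. TMM factors and the expression filter used all 20 libraries in 4 groups, and 17258 of 24062 genes passed, all 38 members among them. Each stage comparison fitted only its own libraries by quasi-likelihood F tests, and genes with 0 counts in all libraries of a fit were left out of it. Adjustment was by Benjamini and Hochberg over all genes tested (threshold 0.05). Standard errors of log2 fold changes were computed from the F values. Log2 CPM used a prior count of 2, and floors used 3 counts over a group. No 2 libraries agreed within sampling noise (190 pairs, lowest chi-square per degree of freedom 22.63). Neurofibromas 8 and 9 have sample codes with the same number, and so have GEM-PNST library 2 and the first paraspinal library of subgroup 1. The fits were tested on simulated data.

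The tests were repeated with DESeq2 1.42.0, with limma-voom (limma 3.58.1) and sample weights, with RLE factors, without the filter, with at least 1 CPM asked for in 4 libraries, with all libraries in 1 fit, with the replicate number as a block, with libraries left out in turn, and with each paraspinal subgroup or neurofibroma run alone. Members and lists were chosen with earlier results of these data known. In each role group, values per library are given for the 2 to 4 members with the highest mean log2 CPM, for members with 0 counts in a whole group and for members against the direction of their group. Positions and exon lengths are from GENCODE on GRCm38, which shares coordinates with mm10, and all 38 members were matched. Exons of 11 members overlap another gene. Values of 2 genes outside the member list are not reported here.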

Additional observations from a re-analysis of the deposited data

Results flagged for a closer look

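Within each stage of 4 libraries, a member was singled out where its highest or lowest library lay far from the other libraries, by the gap to the nearest of them over the whole range (above Dixon's critical value for 4 samples). This was so in 21 of 76 groups of 4, of which 13 were in GEM-PNST and 8 in paraspinal libraries. Chance flags about 1 in 20 such groups where values are normally distributed, which CPM near 0 are not. A gene read in a single library of 4, such as Isl1, Stmn3, Snap25 and Trpv1 in GEM-PNST, stands apart by construction, and 8 members with no read in GEM-PNST cannot. By the same measure 3112 of 16397 genes tested with a read in GEM-PNST stood apart there, against 13 of 30 members with a read. In paraspinal libraries 1106 of 16808 genes with a read stood apart, against 8 of 38 members. The members' share was thus above that of all genes in both stages. Since the members were chosen with earlier results known, these shares describe the list and do not test it.

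In GEM-PNST library 3 the highest of 4 levels stood apart for Uchl1 (74.6 CPM, others 0.739 to 8.04), Syp (16.8 CPM, others 0.941 to 2.8), Ntrk3 (3.71 CPM, others 0 to 0.161), Isl1 (0.742 CPM, others 0), Stmn3 (0.198 CPM, others 0) and Trpv1 (0.049 CPM, others 0). The last of these is a single read. In GEM-PNST library 2 this was so for Gap43 (109 CPM, others 0 to 15.4), Calca (10.4 CPM, others 0 to 0.841), Snap25 (0.969 CPM, others 0) and Trpa1 (0.861 CPM, others 0 to 0.08). Library 1 stood apart for Avil (477 CPM, others 1.24 to 8.94) and, as the lowest, for P2rx3 (0 CPM, others 0.483 to 0.544). Library 4 stood apart for Syt1 (0.483 CPM, others 0 to 0.054).

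Among paraspinal tumours, subgroup 1 library 2 was far above the rest for Nefl (1409.8 CPM, others 623 to 718), P2rx3 (177 CPM, others 73.1 to 84.4), Isl2 (87.6 CPM, others 23.1 to 32.4), Mrgprd (65.4 CPM, others 10.4 to 19.3) and Trpa1 (28.4 CPM, others 7.47 to 10.4). Subgroup 1 library 1, which carried sympathetic neuron markers, was far above the rest for Syt1 (501 CPM, others 40.4 to 115) and Htr3a (88.6 CPM, others 26.6 to 30.7) and below them for Calcb (16.1 CPM, others 42.9 to 47.4).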

How the results depend on the processing

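No call of a member changed direction under any alternative. Between GEM-PNST and paraspinal tumours 36 members were called, 34 to 37 with other factors, filters, tools or all libraries in 1 fit, 23 to 36 with 1 library left out, 23 with subgroup 1 alone and 11 with subgroup 2 alone, and 11 members were called in all 17 alternatives. Over all genes the share called was 10.8%, 8.17% with no filter, 28.2% with DESeq2, 39.4% in 1 fit of all libraries and 3.11% to 14.7% with 1 library left out, so equal member counts do not stand for equal stringency. Between paraspinal tumours and neurofibromas 8 were called, 8 with no filter, with the stricter filter and with DESeq2, 6 in 1 fit of all libraries, 5 with RLE factors (3 higher and 2 lower), 4 with limma-voom, 4 to 10 with 1 library left out, 4 with subgroup 1 alone, 6 with subgroup 2 alone, 4 with neurofibroma libraries 1 to 6, and 5 without subgroup 1 library 1 and neurofibroma library 9, a fit added after the data were seen. RLE factors moved the median log2 fold change of all genes there to -0.20, against -0.03 with TMM, and for GEM-PNST against neurofibroma to -0.31, against -0.15. In that last comparison 35 were called, 14 with limma-voom, 33 to 36 otherwise without the block. The cause of the lower counts with limma-voom was not tested. A fit with fewer libraries has fewer degrees of freedom. Whether the replicate numbers pair the samples could not be settled. Correlations of deviations between same-numbered libraries were -0.273 to 0.213, with 3 of 12 over 0.1, and differently numbered libraries were not computed for reference. GEM-PNST library 2 and the first paraspinal library of subgroup 1, whose sample codes share a number, have different replicate numbers and were not compared in this way. With the replicate number as a block, 27, 3 and 28 members were called in the 3 comparisons, in the order above, and 5.68%, 16.3% and 42.5% of all genes, against 10.8%, 58.6% and 72.8% without it. Folds of members at 0 to 3 counts in GEM-PNST were computed again with 1 library left out (added after the data were seen). They moved by over 1.5 times only for the 5 named in the report, with 1 paraspinal library left out. GEM-PNST libraries were left out only for members at 0 counts. The ratios of Pou4f1, Trpv1 and Elavl3, which rest on 1 to 3 reads in GEM-PNST, were not checked in that way.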

Other observations

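GEM-PNST library 2 differed from the other GEM-PNST libraries in genes of neurons outside the list. Thy1 had 5913 CPM there, against 74.9 to 842 CPM in the other GEM-PNST libraries, and Npy had 375 CPM, against 0 to 0.346 CPM. Markers of central neurons summed to 67.9 CPM in library 2, against 0.693 to 16.3 CPM in the other GEM-PNST libraries. Krt8 and Krt18, keratins of simple epithelia also found in Merkel cells, the touch receptor cells of the skin, were read in GEM-PNST and nearly absent elsewhere. Krt18 had 178, 365, 13.4 and 85.5 CPM in the GEM-PNST libraries, against at most 0.0733 CPM in paraspinal and 1.61 CPM in neurofibroma libraries. Krt8 had 1.34, 8.34, 10.1 and 716 CPM in the GEM-PNST libraries, against at most 0.183 CPM in paraspinal and 0.783 CPM in neurofibroma libraries. Genes of the keratin family have near-identical copies, so these levels are uncertain where reads could be split between them. Other Merkel cell markers did not share this pattern. Krt20 had 1.34, 112, 0.594 and 0.643 CPM in the GEM-PNST libraries, and Atoh1 had no read there. Sox2 had 0.202, 45.2, 12.1 and 0.643 CPM in the GEM-PNST libraries, against 17.3 to 32.8 CPM in paraspinal libraries.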
